A study of Ranunculus trichophyllus with 6 samples.

Results

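The genes described here are the homologs of the amphibious plant *Ranunculus trichophyllus* that the deposited annotation places under the Gene Ontology term glycolytic process. A homolog is the sum of all assembled transcripts whose best protein match is the same *Arabidopsis thaliana* gene. Members were taken from the annotation table as *Arabidopsis* matches that carry the term with any evidence code except ND (no data) and that carry neither the chloroplast stroma nor the chloroplast thylakoid membrane term. The homologs of ADH1, PDC1, PDC2 and SUS4 were left out by name. This gave 84 of 8613 homologs, built from 146 of the 17559 transcripts with an *Arabidopsis* match. The rule uses no measured value, but it was set with earlier results of these data known.

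Glycolysis splits hexoses in the cytosol, by a chain of enzymes from hexokinase to pyruvate kinase, into pyruvate with a gain of ATP and NADH. Plants hold parallel versions of many of these enzymes in plastids, and they can pass the fructose 6-phosphate step either with ATP or with pyrophosphate. In submerged plants, where oxygen and carbon dioxide diffuse slowly, the pathway is known as the source of ATP that does not depend on respiration.

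RNA was sequenced from aquatic plants, seedlings put under water, and from terrestrial plants, seedlings kept on land, with 3 libraries per condition. In each condition replicate 1 is labelled as leaf at 14 days and replicates 2 and 3 as leaf with shoot apical meristem at 11 days, so that tissue and age differ together between the harvests. The labels give the shoot without cotyledons and hypocotyl as the source, and name no genotype, no number of plants per library and no separate cultures, so the p-values measure only the spread between these samples. The study's text names the sampled material as whole plant tissues in its methods and as upper parts with leaves and apexes beside its transcriptome results, and the harvests were taken here from the labels.

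Total counts ranged from 25345718 to 33978729 per library, and homologs held 54.2 to 56.3% of them, except in aquatic replicate 1, where they held 33.4% and 3 transcripts with no annotation held 36.2%. The 8 tested markers of shoot apex or dividing cells summed to 22.9 CPM (counts scaled to the library size) in aquatic replicate 1 and 36.6 CPM in terrestrial replicate 1, with the meristem gene STM at 0 in both. In the 11-day libraries they summed to 271 to 291 CPM in aquatic plants and 462 to 622 CPM in terrestrial plants. The 4 tested markers of leaf photosynthesis summed to 16930 to 19938 CPM in aquatic plants and 19305 to 38357 CPM in terrestrial plants, with none of them at 0. Of these markers, 5 of 8 for the apex and 1 of 4 for photosynthesis were lower in aquatic plants by edgeR and none was higher. Of all homologs tested, 6.78% were lower and 9.6% higher. The marker lists held 14 and 8 genes, of which 8 and 4 had a homolog. The part of these markers in the results below was not tested. In such bulk samples, fewer cells of a type and less RNA per cell cannot be told apart.

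The label glycolysis fits only a minority of the members. Enzymes listed for a glycolytic step, with the hexokinase-like protein HKL1 among them, made up 17 of the 84. By contrast, 64 members were placed under the term by computational analysis alone (evidence code RCA), and none of those 64 was a glycolytic enzyme. By the known role of their *Arabidopsis* match, the other 67 members comprised 4 subunits of pyruvate dehydrogenase, 8 genes of mitochondrial carbon metabolism and electron transport, 8 proteasome subunits, 7 genes of translation, 5 chaperones, 5 aquaporins, 8 genes of cell wall and cytoskeleton, and 22 others. The transcripts of all members shared a median of 80% of their residues with the match (range 31 to 97%), against 58% over every *Arabidopsis*-matched transcript. The 17 enzymes were built from 27 transcripts and cover 9 of the 12 steps listed, with no member for triose-phosphate isomerase, phosphoglycerate kinase or the non-phosphorylating glyceraldehyde-3-phosphate dehydrogenase. The cytosolic triose-phosphate isomerase and phosphoglycerate kinase homologs carry the stroma term in the annotation and were therefore not members.

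Of the 84 members, 81 had enough counts for the test. The other 3 did not, with at most 63 counts each over the 6 libraries. At an adjusted p under 0.05 from edgeR, 9 members were higher and 5 lower in aquatic plants, 17.3% of those tested, against 16.4% of all 8154 homologs tested (9.6% higher and 6.78% lower). The share called was thus close to the background of these libraries. The aquatic libraries lay above all terrestrial ones for 12 members and below all of them for 6, 22.2% of those tested, against 25.6% of all homologs. The median log2 fold change of the members, aquatic over terrestrial, was -0.05, against -0.02 for all homologs, and 60 of the 81 lay within 0.5 of 0. In the 11-day libraries alone 11 members were higher and 5 lower, 19.8% against 19.7% of all homologs, and 12 of these 16 were among the 14. With the replicate number as a block, a fit that pairs the libraries by number, 1 member was higher and 1 lower, against 4.01 and 1.45% of all homologs (5.46% in either direction). Within the 11-day harvest the values do not show such pairs. DESeq2 called 17 higher and 13 lower, against 16.8 and 16.1% of all homologs (32.9% in either direction), and upper-quartile scaling gave 6 higher and 10 lower, against 7.85 and 11.8%. Leaving out aquatic replicate 2 gave 0 higher and 0 lower, with 0% of all homologs called, and leaving out terrestrial replicate 3 gave 1 higher and 0 lower, against 0.852% of all homologs. Leaving out terrestrial replicate 2 gave 2 higher and 1 lower, 3.70% of the members tested against 1.92% of all homologs, and leaving out aquatic replicate 3 gave 2 of each, 4.94% against 7.29%.

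**Figure D1:**
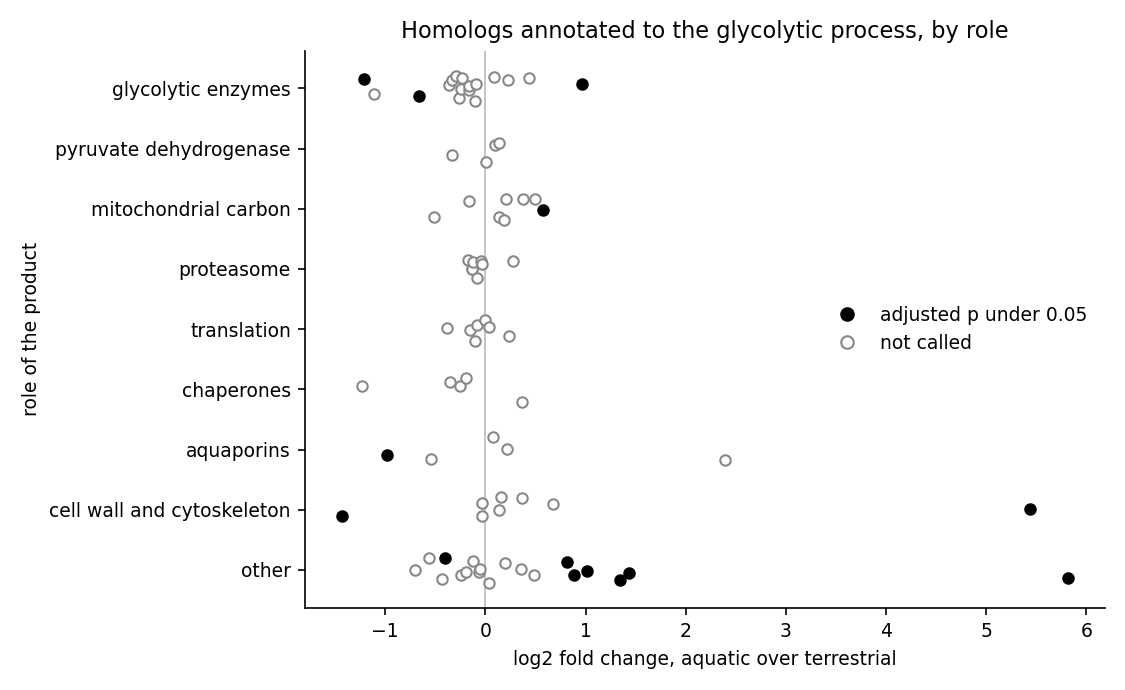
Log2 fold change (aquatic over terrestrial, horizontal axis) of the 81 tested members, 1 point each, grouped by the known role of the product. Filled points had an adjusted p under 0.05 from edgeR. Most points lie within 0.5 of 0, and AT5G21090 (5.82) and AT5G62350 (5.43) stand far to the right.

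Among the 17 glycolytic enzymes, the homolog of cytosolic glyceraldehyde-3-phosphate dehydrogenase was higher in aquatic plants, and the homologs of a subunit of the pyrophosphate-dependent phosphofructokinase and of 1 pyruvate kinase were lower. The other 14 did not pass the test. The log2 fold change was negative for 13 of the 17, with a median of -0.24. Of the 8154 homologs tested it was negative for 4178, with a median of -0.02. Of the 17 enzymes, 5 had a lower value in the aquatic library of every replicate number, and 1 had a higher value in every one. For these counts by number the share over all homologs is not given here. Within the 11-day harvest the values do not show such pairs. The share called, 17.6%, was again near the background of 16.4%.

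**Figure D2:**
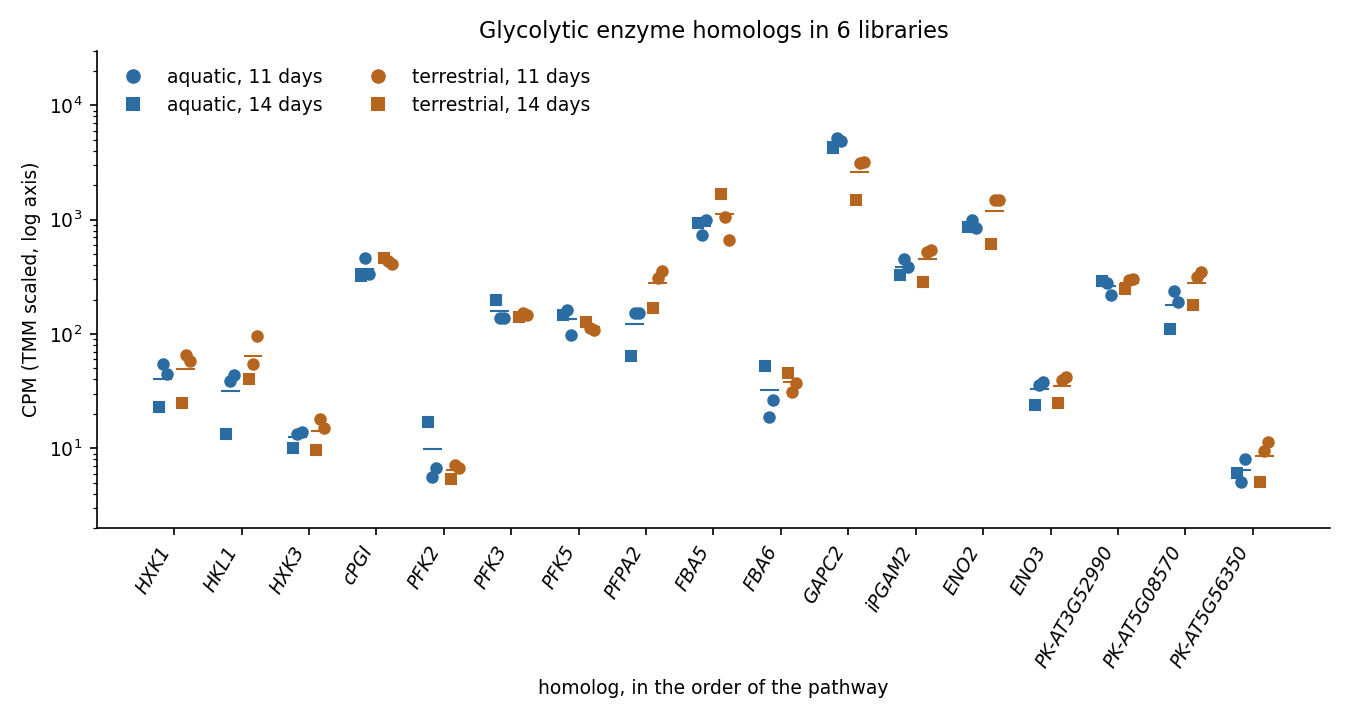
CPM (log axis) of the 17 glycolytic enzyme homologs in the order of the pathway, with the 3 aquatic libraries left of the 3 terrestrial ones. Squares are the 14-day libraries, circles the 11-day libraries and lines the means. GAPC2 is the highest in every library except terrestrial replicate 1, where FBA5 is, and PFPA2 is low in all 3 aquatic libraries.

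At the entry of the pathway, hexokinase phosphorylates glucose. HKL1 had the highest mean level per length of the 3 members of this step, 14.7 TPM, close to the 13.5 TPM of HXK1, which in *Arabidopsis* is both an enzyme and a glucose sensor. That order rests on terrestrial replicates 1 and 3, where HKL1 had 12.3 and 32.0 TPM and HXK1 7.49 and 19.3 TPM, while HXK1 was the higher in the other 4 libraries. HKL1, a hexokinase-like protein that in *Arabidopsis* regulates growth without glucose phosphorylating activity, had 13.3, 38.5 and 44.1 CPM in aquatic replicates 1 to 3, against 40.5, 54.6 and 96.6 CPM in terrestrial replicates 1 to 3. Each aquatic library lay below the terrestrial one of its number, but the groups overlapped. The log2 fold change of HKL1 was -1.11 (SE, the standard error, 0.28, 95% interval -1.83 to -0.39), with adjusted p = 0.0569 from edgeR, short of the threshold. Summed over HXK1, HKL1 and HXK3, the step had 46.5, 106 and 103 CPM in aquatic plants, against 74.8, 138 and 170 CPM in terrestrial plants. The sum fell by 0.60 on the log2 scale (SE 0.12) with adjusted p = 0.0359 from edgeR, and did not pass with the replicate block (adjusted p = 0.0828). HXK1 and HXK3 had log2 fold changes of -0.24 and -0.16 and were not called. The called sum thus includes HKL1, which lacks this activity in *Arabidopsis*, and a sum without HKL1 was not tested.

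Glucose-6-phosphate isomerase, which turns glucose 6-phosphate into fructose 6-phosphate, was represented by its cytosolic form cPGI. It had 319, 461 and 334 CPM in aquatic replicates 1 to 3, against 465, 434 and 410 CPM in terrestrial replicates 1 to 3. The groups overlapped in aquatic replicate 2, and the log2 fold change of -0.24 (95% interval -0.71 to 0.24) had an adjusted p of 0.394 from edgeR.

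The next phosphate is added either by the ATP-dependent phosphofructokinases or by the pyrophosphate-dependent enzyme, which works in both directions. PFPA2 encodes an alpha subunit of the pyrophosphate-dependent enzyme, the regulatory one, and was the only homolog of that enzyme among the members. It had 64.1, 152 and 154 CPM in aquatic replicates 1 to 3, against 169, 311 and 353 CPM in terrestrial replicates 1 to 3. Every aquatic library lay below every terrestrial one, and within each harvest the aquatic values were under the terrestrial values. PFPA2 fell by 1.21 on the log2 scale (SE 0.12, 95% interval -1.52 to -0.90, adjusted p = 0.0115 from edgeR). The call held with the replicate block (adjusted p = 0.0387) and in the 11-day libraries alone (log2 fold change -1.12, adjusted p = 0.0124), while the 14-day pair had -1.40. It was lost without terrestrial replicate 3 (adjusted p = 0.0675) or without aquatic replicate 2 (adjusted p = 0.0614).

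The ATP-dependent phosphofructokinases PFK2, PFK3 and PFK5 were not called. PFK5, of the plastid type in *Arabidopsis*, had the highest level per length of this step (36.8 TPM on average), with 146, 162 and 97.0 CPM in aquatic plants, against 128, 112 and 108 CPM in terrestrial plants. The step summed to 302 ± 59.3 CPM in aquatic plants and 269 ± 6.02 CPM in terrestrial plants (SD, n = 3 each), with a log2 fold change of 0.16 (95% interval -0.24 to 0.56). PFK2 held few counts, 380 in the aquatic and 297 in the terrestrial libraries, and most of its aquatic level came from replicate 1 (16.9 CPM, against 5.63 and 6.79 CPM in replicates 2 and 3).

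Fructose-bisphosphate aldolase cleaves the hexose into 2 triose phosphates. FBA5 had the second highest mean level per length among the 17 enzymes (460 TPM), with 941, 734 and 984 CPM in aquatic replicates 1 to 3, against 1661, 1051 and 662 CPM in terrestrial replicates 1 to 3. The terrestrial libraries spread on both sides of the aquatic ones, and the log2 fold change of -0.27 (SE 0.29) was not called. In the 11-day libraries alone it was 0.0046, and in the 14-day pair -0.82. FBA6 was lower in level, between 18.6 and 52.4 CPM over all libraries, with a log2 fold change of -0.34 and no call.

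A further aldolase transcript carries the same term but has its best match in rice (87% identical residues to a cytoplasmic isozyme), and so is no member. It had 509, 5375 and 6132 counts in aquatic replicates 1 to 3, against 3345, 13379 and 15290 counts in terrestrial replicates 1 to 3. Tested among all transcripts, it fell by 1.70 on the log2 scale (SE 0.23, adjusted p = 0.0115 from edgeR, and 0.0394 with the replicate block). The call was lost without aquatic replicate 2 (adjusted p = 0.0564) or without terrestrial replicate 3 (adjusted p = 0.0562). In both harvests the aquatic counts were under the terrestrial ones, and both 14-day libraries were under the 11-day libraries of their condition. With this transcript added, a choice made after the data were seen, the aldolase step had 1038, 1121 and 1389 CPM in aquatic plants, against 1913, 1992 and 1680 CPM in terrestrial plants. Its log2 fold change was then -0.66 (95% interval -1.08 to -0.23, adjusted p = 0.0560 from edgeR), against -0.27 (95% interval -0.97 to 0.43, adjusted p = 0.512) over FBA5 and FBA6 alone. Neither sum was called, though with the transcript the groups no longer overlapped.

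**Figure D3:**
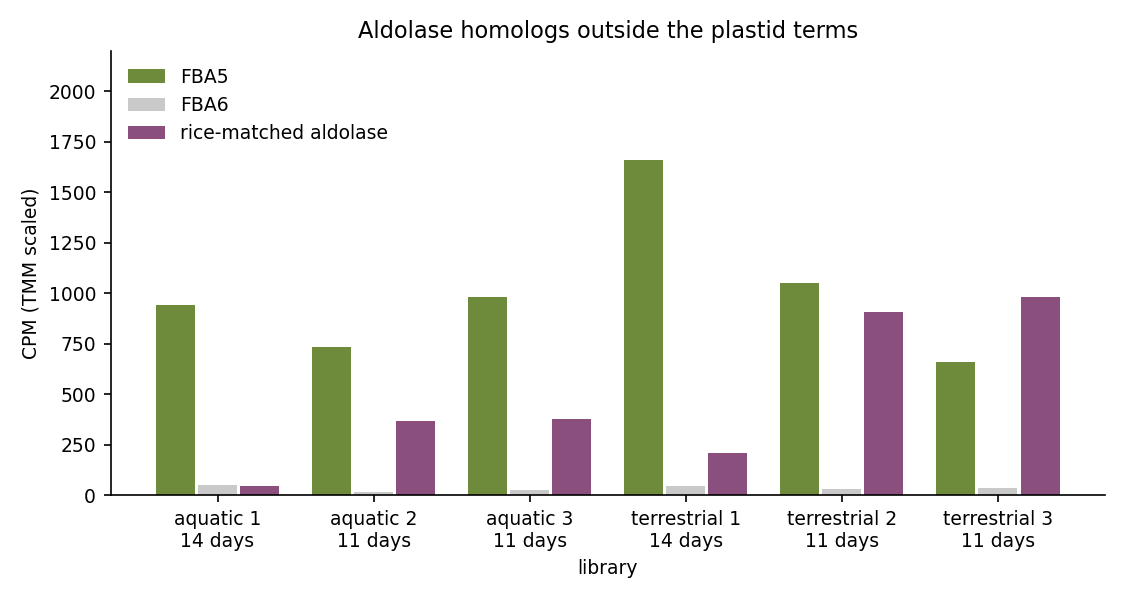
CPM of FBA5, FBA6 and the rice-matched aldolase transcript in each library, aquatic left of terrestrial. The rice-matched transcript has 45.7 to 379 CPM in the aquatic libraries and 208 to 981 CPM in the terrestrial ones, and FBA5 is highest in terrestrial replicate 1 (1661 CPM).

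GAPC2, the cytosolic glyceraldehyde-3-phosphate dehydrogenase that makes NADH, was the most abundant of the enzymes per length, with a mean of 1327 TPM, rank 36 of the homologs. Its single transcript shares 90% of its residues with the match, and no homolog of the close paralog GAPC1 was in the table, so reads of both could be counted there. GAPC2 had 4252, 5189 and 4888 CPM in aquatic replicates 1 to 3, against 1476, 3098 and 3178 CPM in terrestrial replicates 1 to 3. The lowest aquatic library was above the highest terrestrial one. GAPC2 was 1.95-fold higher in aquatic plants (95% interval 1.31 to 2.90, log2 fold change 0.96, standard error 0.22, adjusted p = 0.0471 from edgeR). In the 11-day libraries alone the log2 fold change was 0.68 (adjusted p = 0.0331), and in the 14-day pair 1.53. The call is close to the threshold and was lost with the replicate block (adjusted p = 0.114), with upper-quartile scaling (adjusted p = 0.0603), at the level of the transcript (adjusted p = 0.0792), and without any 1 of the 11-day libraries (adjusted p 0.0907 to 0.140), while the direction stayed.

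GAPC2 alone made up 55.6, 57.8 and 58.1% of the summed CPM of the 17 enzymes in aquatic replicates 1 to 3, against 26.8, 38.7 and 40.8% in terrestrial replicates 1 to 3. The other 16 enzymes together had 3400, 3784 and 3529 CPM in aquatic plants, against 4035, 4909 and 4609 CPM in terrestrial plants. Neither quantity overlapped between the groups. GAPC2 by itself did not overlap, as given above, so its share is no separate result. The sums hold members only, without the cytosolic cTPI (triose-phosphate isomerase) and PGK3 (phosphoglycerate kinase), and so are not those of the whole pathway. cTPI had 1652 to 1720 CPM in aquatic and 540 to 808 CPM in terrestrial plants, and PGK3 had 1258 to 1805 and 366 to 892 CPM. These sums follow the most abundant members and were not tested.

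**Figure D4:**
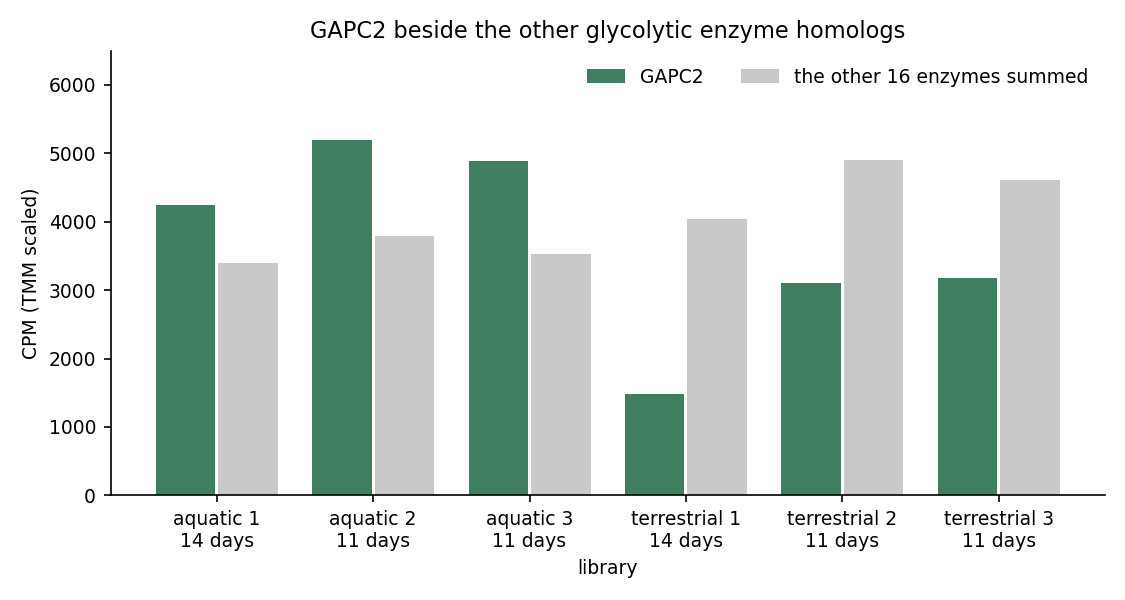
CPM of GAPC2 and of the other 16 glycolytic enzyme homologs summed, in each library, aquatic left of terrestrial. GAPC2 exceeds the sum of the others in every aquatic library (4252 to 5189 CPM) and stays under it in every terrestrial library (1476 to 3178 CPM). The sum holds members only, without the cytosolic triose-phosphate isomerase and phosphoglycerate kinase homologs.

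In the lower part of the pathway, phosphoglycerate mutase moves the phosphate and enolase removes water to give phosphoenolpyruvate. The mutase iPGAM2 had 329, 450 and 383 CPM in aquatic plants, against 283, 521 and 540 CPM in terrestrial plants, and was not called (log2 fold change -0.16, 95% interval -0.60 to 0.28). ENO2, the main enolase in *Arabidopsis*, had 859, 1002 and 850 CPM in aquatic replicates 1 to 3, against 608, 1490 and 1471 CPM in terrestrial replicates 1 to 3. The aquatic library was the higher of the 14-day pair (log2 ratio 0.50), and both aquatic libraries were lower at 11 days. Over both harvests ENO2 was not called (log2 fold change -0.29, adjusted p = 0.494 from edgeR), whereas in the 11-day libraries alone it was (log2 fold change -0.68, adjusted p = 0.0363). A minor second transcript of ENO2, with 2.18% of the counts of the homolog, was lower in aquatic plants by itself (log2 fold change -2.36, adjusted p = 0.00873). ENO3, an enolase-like gene, lay between 24.1 and 41.7 CPM in all libraries, with a log2 fold change of -0.10.

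Pyruvate kinase, the last step, makes pyruvate and ATP. The homolog of the pyruvate kinase gene AT5G08570 had 110, 235 and 189 CPM in aquatic replicates 1 to 3, against 178, 317 and 351 CPM in terrestrial replicates 1 to 3. Each aquatic library lay below the terrestrial one of its number, although the groups overlapped across harvests. It fell by 0.66 on the log2 scale (SE 0.13, 95% interval -1.01 to -0.32, adjusted p = 0.0350 from edgeR). In the 11-day libraries alone the log2 fold change was -0.65 (adjusted p = 0.0495), and in the 14-day pair -0.69. The call was lost with the replicate block (adjusted p = 0.0863) and without any 1 library (adjusted p 0.0549 to 0.131) except aquatic replicate 1 (adjusted p = 0.0459). With either 14-day library left out, the condition effect rests on the 11-day libraries. The homolog of AT3G52990, the most abundant pyruvate kinase per length (111 TPM on average), had 289, 277 and 220 CPM in aquatic plants, against 248, 295 and 301 CPM in terrestrial plants, and a log2 fold change of -0.10. The third, AT5G56350, had at most 11.4 CPM. The sum of all 3 had a log2 fold change of -0.33 (95% interval -0.73 to 0.07) and was not called (adjusted p = 0.187). Of the 9 steps, glyceraldehyde-3-phosphate dehydrogenase was higher, hexokinase (HKL1 included) and pyrophosphate-dependent phosphofructokinase were lower, and 6 were not called. The glyceraldehyde-3-phosphate dehydrogenase and pyrophosphate-dependent steps hold 1 member each, GAPC2 and PFPA2. Their calls repeat those of the genes and are no separate results. Over all features tested with these sums, 9.61% were higher and 6.81% lower. With the replicate block, the pyrophosphate-dependent step alone passed.

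**Figure D5:**
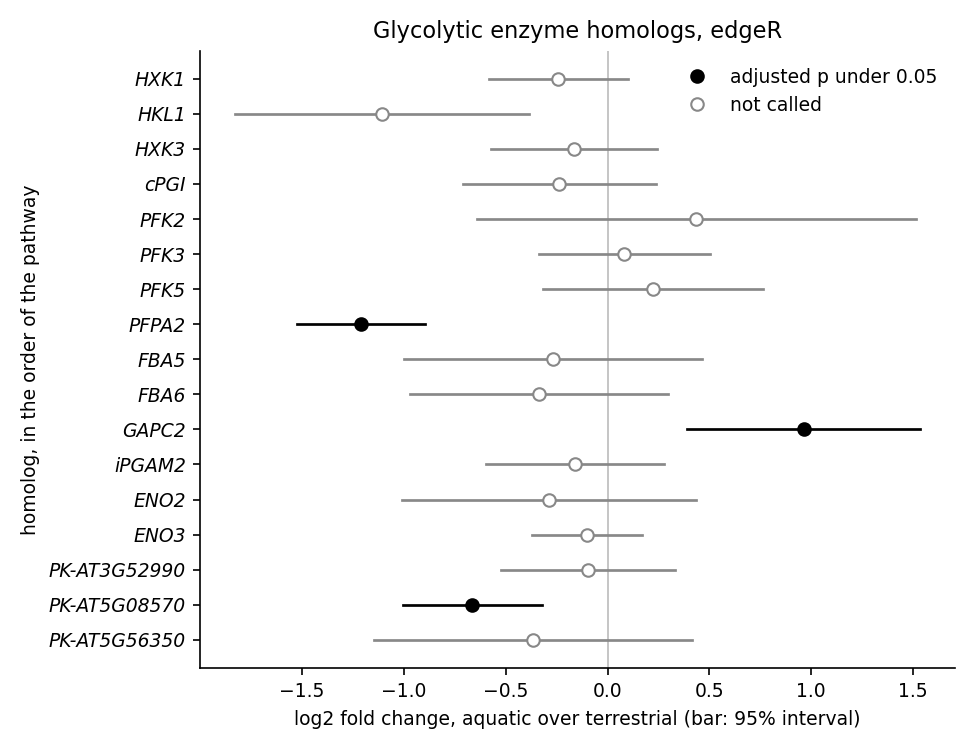
Log2 fold change (aquatic over terrestrial) of the 17 glycolytic enzyme homologs from edgeR, with 95% intervals, in the order of the pathway. PFPA2 (-1.21) and the pyruvate kinase of AT5G08570 (-0.66) are filled on the left and GAPC2 (0.96) on the right, and the interval of HKL1 leaves out 0 although its adjusted p of 0.0569 does not pass.

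Of the 55 genes in the list of glycolytic enzymes, 30 had a homolog, and 13 of these were no members because of a plastid term in the annotation. Among the 13, 2 were higher and 1 lower in aquatic plants, 23.1% against 16.4% of all homologs. The homolog of cTPI, the cytosolic triose-phosphate isomerase, had 1720, 1652 and 1656 CPM in aquatic plants, against 540, 807 and 808 CPM in terrestrial plants, with a log2 fold change of 1.25 (SE 0.18, adjusted p = 0.0182 from edgeR). PGK3, the cytosolic phosphoglycerate kinase, had 1258, 1805 and 1632 CPM in aquatic plants, against 366, 824 and 892 CPM in terrestrial plants, with a log2 fold change of 1.26 (SE 0.21, adjusted p = 0.0221 from edgeR). In the pathway these enzymes stand on either side of GAPC2, and all 3 had their lowest terrestrial value at 14 days. GAPCP1, a plastid glyceraldehyde-3-phosphate dehydrogenase, had 18.2, 74.1 and 52.1 CPM in aquatic plants, against 39.5, 142 and 167 CPM in terrestrial plants, and fell by 1.23 on the log2 scale (adjusted p = 0.0182 from edgeR). With the replicate block, cTPI, PGK3 and GAPCP1 had an adjusted p of 0.0564, 0.0677 and 0.0526. None of the 3 was called without aquatic replicate 2, terrestrial replicate 2 or terrestrial replicate 3 (adjusted p up to 0.0851, 0.0917 and 0.0836), nor was PGK3 without aquatic replicate 3.

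Over all 34 homologs of the term that carry the stroma or thylakoid membrane term, 4 were higher and 8 lower in aquatic plants, 35.3% against 16.4% of all homologs. Of the homologs under gluconeogenesis that are no members, 4 were higher and 6 lower of 51 tested (19.6%), and under the tricarboxylic acid cycle 1 was higher and 2 lower of 17 (17.6%). Under the pentose-phosphate shunt 5 were higher and 7 lower of 90 (13.3%). Genes that feed sucrose into the pathway were tested from a list of 12, of which 4 had a homolog. BFRUCT4, a vacuolar invertase that cleaves sucrose, had 684, 251 and 342 CPM in aquatic plants, against 141, 108 and 90.8 CPM in terrestrial plants, and a log2 fold change of 1.81 (SE 0.23, adjusted p = 0.0154 from edgeR, and 0.0475 with the replicate block). BFRUCT3, also a vacuolar invertase, had 0, 0.755 and 0.741 CPM in aquatic plants, against 0.373, 11.8 and 14.7 CPM in terrestrial plants, and fell by 4.16 on the log2 scale (adjusted p = 0.00724 from edgeR, and 0.0270 with the replicate block). Its terrestrial level came from the 11-day libraries. Of 9 listed genes of phosphoenolpyruvate use and its return to sugars, 4 had a homolog, and PPC4, a phosphoenolpyruvate carboxylase, was the only one called, with 484, 172 and 110 CPM in aquatic plants, against 800, 504 and 428 CPM in terrestrial plants. Its log2 fold change was -1.39 (adjusted p = 0.0408 from edgeR, and 0.0786 with the replicate block). Without aquatic replicate 2 or terrestrial replicate 3 none of these 3 calls held, without terrestrial replicate 2 those of BFRUCT4 and PPC4 were lost, and without aquatic replicate 3 that of PPC4 (adjusted p up to 0.0836 for BFRUCT4, 0.0546 for BFRUCT3 and 0.133 for PPC4).

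Of the 12 members of pyruvate dehydrogenase and mitochondrial carbon metabolism, 1 was called, 8.33% against 16.4% of all homologs. Pyruvate dehydrogenase, which turns pyruvate into acetyl-CoA, had 4 subunits, among them a plastid E1 beta subunit. Their log2 fold changes lay between -0.33 and 0.14 with none called, at 113 to 314 CPM in all libraries. ACO1, an aconitase, which turns citrate into isocitrate, had 542, 519 and 552 CPM in aquatic plants, against 361, 369 and 353 CPM in terrestrial plants, a narrow spread with no overlap, and a log2 fold change of 0.58 (SE 0.11, adjusted p = 0.0290 from edgeR, and 0.0825 with the replicate block). It was named after its values were seen, as were CBSX3 and MDAR1 below. The 8 proteasome subunits lay between -0.17 and 0.27 on the log2 fold change scale, the 7 members of translation between -0.38 and 0.23, and none of either group was called. The 5 chaperones lay between -1.23 and 0.36 with none called. At an unadjusted p under 0.05 from edgeR, 0 subunits of pyruvate dehydrogenase, 0 of the proteasome, 1 member of translation, 2 chaperones and 3 of the 8 members of mitochondrial carbon metabolism would have passed, against 37.6% of all homologs.

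The 2 largest differences among all members were in genes with no known part in glycolysis. AT5G21090, a protein with leucine-rich repeats, had 197, 46.3 and 27.1 CPM in aquatic replicates 1 to 3, against 2.61, 0.612 and 0.963 CPM in terrestrial replicates 1 to 3. It had 3309 counts in the aquatic and 66 in the terrestrial libraries, a log2 fold change of 5.82 (SE 0.36, adjusted p = 0.00679 from edgeR, and 0.0246 with the replicate block). Without aquatic replicate 2 it had an adjusted p of 0.0524. AT5G62350, an inhibitor-like protein of the invertase and pectin methylesterase inhibitor family, had 180, 122 and 96.9 CPM in aquatic plants, against 0.746, 8.16 and 1.15 CPM in terrestrial plants, with a log2 fold change of 5.43 (SE 1.06, adjusted p = 0.0329 from edgeR, and 0.0564 with the replicate block). Its log2 fold change was 4.55 without aquatic replicate 1 and 7.12 without terrestrial replicate 2, and its call was lost without terrestrial replicate 3 (adjusted p = 0.118), aquatic replicate 2 (0.0967) or aquatic replicate 3 (0.0690). Their matches were less close than those of the enzymes, at 51% of residues for the single transcript of AT5G21090 and 48% for the main one of AT5G62350.

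Also higher were RD19, APA1, ATB2, MDAR1 and CBSX3. RD19, a cysteine protease known from drought, had 1350, 343 and 472 CPM in aquatic plants, against 347, 228 and 169 CPM in terrestrial plants, a log2 fold change of 1.35 (adjusted p = 0.0376 from edgeR). The aquatic 14-day library stood far above the others, and the groups overlapped across harvests. APA1, an aspartic protease, had 675, 295 and 438 CPM in aquatic plants, against 348, 201 and 155 CPM in terrestrial plants, and its log2 fold change was 1.01 (adjusted p = 0.0345). ATB2, an aldo-keto reductase, had 85.9, 74.7 and 36.2 CPM in aquatic plants, against 29.2, 21.9 and 21.1 CPM in terrestrial plants, and its log2 fold change was 1.43 (adjusted p = 0.0353). MDAR1, which regenerates ascorbate, rose by 0.89 (adjusted p = 0.0409), and CBSX3, a mitochondrial regulator of thioredoxin, by 0.81 (adjusted p = 0.0189), both with no overlap between the groups.

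Lower in aquatic plants were TUB6, PIP1;5 and PRXIIF. TUB6, a beta tubulin, had 64.4, 312 and 244 CPM in aquatic plants, against 271, 551 and 659 CPM in terrestrial plants, and fell by 1.43 on the log2 scale (SE 0.25, adjusted p = 0.0261 from edgeR). PIP1;5, a water channel of the plasma membrane, had 564, 454 and 599 CPM in aquatic plants, against 1336, 922 and 981 CPM in terrestrial plants, and fell by 0.98 (SE 0.17, adjusted p = 0.0248). Every aquatic library was below every terrestrial one for PIP1;5, and the other 4 aquaporins were not called. PRXIIF, a mitochondrial peroxiredoxin, fell by 0.41 (adjusted p = 0.0472), and was not called without any 1 of the 6 libraries (adjusted p 0.0564 to 0.164). Of the 11 called members that are no glycolytic enzymes, AT5G21090 was the only one that passed with the replicate block, where the others had an adjusted p between 0.0561 and 0.104. Of these 11, 8 were called without aquatic replicate 1 and 8 without terrestrial replicate 1, 3 without aquatic replicate 3, 2 without terrestrial replicate 2, 1 without terrestrial replicate 3 and 0 without aquatic replicate 2. With the harvest term in the fit, leaving out 1 of the 14-day libraries leaves the condition effect to the 11-day libraries. The fits without aquatic or terrestrial replicate 1 are therefore near repeats of 1 comparison. APA1, like PRXIIF, was not called with any 1 library left out (adjusted p 0.0512 to 0.145).

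More members passed for the harvest than for the condition, as did more of all homologs. In 14-day leaf, 6 members were higher and 27 lower than in 11-day leaf with apex at the edgeR threshold, and the median log2 difference was -0.38. Over all homologs 15.4% were higher and 18.4% lower (33.8% called) and the median was -0.01. Of the glycolytic enzymes 0 were higher and 6 lower. HXK1 had 23.2 CPM at 14 days against 54.4 and 44.5 CPM at 11 days in aquatic plants, and 24.7 CPM against 65.0 and 58.2 CPM in terrestrial plants (log2 difference -1.21, standard error 0.15, adjusted p = 0.00739). HKL1 (-1.24), PFPA2 (-1.11), the pyruvate kinase of AT5G08570 (-0.92), ENO3 (-0.66) and HXK3 (-0.61) were also lower at 14 days. All 4 pyruvate dehydrogenase subunits were lower, between -0.76 and -0.57, as were 5 of 8 mitochondrial members. The largest drop was that of HOG1, an S-adenosylhomocysteine hydrolase (-2.07, adjusted p = 0.00372), and the largest increase that of TIP2, matched to a tonoplast aquaporin (3.44, adjusted p = 0.0127), which held at most 1.18 CPM outside aquatic replicate 1. The single transcript of TIP2 shares 31% of its residues with the match, the lowest value among the member transcripts. The markers of apex or dividing cells moved with the harvest, 7 of 8 lower at 14 days, and tissue and age cannot be told apart here.

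An interaction of harvest and condition tested whether the aquatic effect differed between harvests. At 14 days this rests on 1 library per condition. By edgeR 0 of the 81 members passed, against 4.61% of all homologs, and 12 had an unadjusted p under 0.05, 14.8% against 19.8% of all homologs. DESeq2 called 4, against 8.99% of all homologs, GAPC2 and ENO2 among the enzymes, the tonoplast aquaporin GAMMA-TIP and the malic enzyme NAD-ME1.

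At the level of single transcripts, 138 of 146 were tested among 58039, and 6 were higher and 7 lower, against 6.42 and 4.04% of all transcripts. Of the 27 transcripts of the glycolytic enzymes, 0 were higher and 3 lower, those of PFPA2, of the pyruvate kinase of AT5G08570 and the minor one of ENO2. Of 36 homologs with several tested transcripts, 8 held transcripts of both signs and 0 held calls in both directions. Fungal-matched transcripts with any count numbered 1642 in aquatic replicate 2 and 54 to 161 in the other libraries. By the rule such transcripts cannot be members, and their effect on the values of the members was not tested. Of the member transcripts, 0 had 90% or more of their counts in a single library.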

How the data were processed

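Reads were assembled de novo by the authors using Trinity, and their methods name TopHat (mapping) and Cufflinks (FPKM). Versions and the protein search tool are not given in the sources used here. The deposited expected counts estimate how many fragments came from each assembled transcript, and are whole numbers in every library. The deposited TPM values were set by the authors relative to the total of each library, and the deposited FPKM values are per length and sequenced fragments, before any quantile normalization. The authors' annotation table gives the best match of 20788 transcripts with the percent of identical residues and GO terms, and 6 columns of library values in it were not used.

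Expected counts were summed per *Arabidopsis* match over the whole table and tested with edgeR 4.0.16 (quasi-likelihood test, TMM scaling, minimum count of 10, terms for harvest and condition) in R 4.3.3. P-values were adjusted by the Benjamini-Hochberg method over all homologs, with 0.05 as the threshold. Standard errors (SE) were derived from the F statistic of edgeR and are approximate. CPM are relative to counts in homologs. Alternatives used DESeq2 1.42.0, other scalings, no filter on low counts, no harvest term, a block for the replicate number, a minimum of 50% identical residues, limma 3.58.1 on quantile-normalized log2 FPKM (pseudocounts 1 and 0.1), and each library left out. When a 14-day library is left out, the harvest term takes up the other one. The condition effect then comes from the 11-day libraries, so such fits nearly repeat the 11-day comparison. Sums and summaries were made with pandas 2.3.3 and numpy 2.4.6 in Python 3.11.15, and plots with matplotlib 3.10.9. The script was tested on simulated data.

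Samples were grouped by their labels. Deviations from the condition means correlated for libraries of the same number (0.662, 0.543 and 0.465 for replicates 1 to 3), so the numbers were taken as pairs. The crossed 11-day pairs correlated as well (0.593 and 0.477), but the deviations from the 11-day means did not (-0.0784). Pairs within the 11-day harvest therefore rest on the numbers in the labels alone.

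The members and lists were chosen with earlier results of these data known. Named genes are the called glycolytic enzymes, the enzyme with the highest mean TPM of each step, and, of the other members, up to 5 called with the largest increase and 5 with the largest decrease.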

Additional observations from a re-analysis of the deposited data

Results flagged for a closer look

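By the interaction term of DESeq2 the aquatic effect differed between the harvests for 4 of the 81 tested members, against 8.99% of all homologs. By edgeR 0 members passed, against 4.61% of all homologs. The term is given as the log2 effect at 14 days minus that at 11 days. It was 0.86 for GAPC2 (adjusted p = 0.0159 from DESeq2 and 0.152 from edgeR) and 1.20 for ENO2 (adjusted p = 0.00186 from DESeq2 and 0.0873 from edgeR). For GAMMA-TIP it was -1.64 (adjusted p = 0.00383 from DESeq2 and 0.114 from edgeR) and for NAD-ME1 -1.08 (adjusted p = 0.00611 from DESeq2 and 0.0733 from edgeR). Each rests on 1 library per condition at 14 days.

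Outside the homologs, 3 transcripts with the same term and a best match in *Aspergillus*, among them a phosphoenolpyruvate carboxykinase and a pyruvate carboxylase, had 639 counts in aquatic replicate 2 and 0 in each other library, the terrestrial libraries included. A count of 0 allows up to 3 counts per library, as counting error only.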

How the results depend on the processing

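Over up to 18 other settings the 14 called members kept their direction, while their calls depended on the fit. Members higher and lower, 9 and 5, were 17 and 13 with DESeq2, 5 higher with limma at a pseudocount of 0.1, 9 lower with limma at a pseudocount of 1, and 0 and 0 with no harvest term. In the same order, these fits called 32.9, 16.9, 18.6 and 0.417% of all homologs in either direction, against 16.4% in the main fit. With upper-quartile scaling, which shifts the median of all homologs by -0.13 on the log2 scale, 10 were lower and 37.5% of the calls were higher, against 64.3% (all homologs 40.0% against 58.6%). No glycolytic enzyme was then higher (0), and 0 were higher and 0 lower with no harvest term. With the replicate block 1 member was higher and 1 lower, 0 enzymes were higher and 1 lower, 0 steps were higher and 1 lower, and 3 transcripts were higher and 3 lower. Of all homologs the block called 5.46% in either direction. With DESeq2 12 transcripts were higher and 14 lower, and the interaction gave 4 members against 0. Leaving out 1 library, or both of a replicate number, gave 0 to 11 members higher and 0 to 5 lower, and 0 to 1 enzymes higher and 0 to 3 lower. The same fits called 0 to 19.8% of all homologs. Leaving out 1 library gave 0 to 1 steps higher and 0 to 2 lower, and 1 to 7 transcripts higher and 1 to 6 lower. For steps and transcripts, the shares over all features under these alternatives are not given here. The cause of these changes in the counts was not tested. Signs turned only for genes with no call, in PFK5 without aquatic replicate 2 (-0.017, range over libraries left out -0.017 to 0.41), in FBA5 without terrestrial replicate 1 (0.0028) or without both libraries of that number (0.0046, range -0.54 to 0.0028 over single libraries), and in the pyruvate kinase of AT3G52990 without aquatic replicate 3 (0.038) or both libraries of that number (0.047, range -0.27 to 0.038 over single libraries). Of 377 values of named genes under alternatives, 251 kept their side of the threshold (246 with the same sign and the 5 above that turned), 120 lost the call and 6 gained one.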
